A study of Mus musculus with 2 samples.

Results

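The genes described here encode the nuclear subunits of oxidative phosphorylation. They were chosen by symbol, as every row of the annotated transcript lists whose gene name began with Nduf, Uqcr, Cox4 to Cox8 or Atp5, or was Sdha, Sdhb, Sdhc or Sdhd. Of the 11054 gene names in the lists, 79 met this rule. They carried 169 of 43122 called transcripts in the control library and 217 of 51365 in the IL-4 library. In the GENCODE M21 annotation 93 protein-coding genes have such symbols, and all of them are counted below. Besides subunits the symbols take in 8 assembly factors of complex I (Ndufaf1 to Ndufaf8), 8 tissue isoforms or paralogs, the supercomplex factor Cox7a2l and the coupling factor Atp5s.

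Nascent RNA was measured with GRO-seq (global run-on sequencing). Engaged RNA polymerases extend their transcripts in isolated nuclei with a bromine-labelled nucleotide, and the labelled RNA is sequenced. The cells were wild-type mouse bone marrow-derived macrophages (BMDMs) from animals aged 8-12 weeks, differentiated over 6 days with L929 supernatant, a source of the growth factor M-CSF. The control library came from cells without added cytokine, and the other from cells given 20 ng/ml IL-4, the cytokine of alternative macrophage polarization, for 1 hr. Each condition was 1 library made from pooled duplicate run-on reactions (n = 1), so no value below has a replicate error, no p-value is given, and how far the values vary between cultures is unknown.

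Oxidative phosphorylation is carried out by 5 protein complexes of the mitochondrial inner membrane. Complexes I (NADH dehydrogenase), III (cytochrome bc1) and IV (cytochrome c oxidase) pump protons as electrons pass to oxygen, complex II (succinate dehydrogenase) feeds electrons from the citric acid cycle, and complex V (ATP synthase) makes ATP from the proton gradient. Most subunits are encoded in the nucleus and a few in the mitochondrial genome, so that both genomes must be expressed. Alternatively polarized macrophages are known to rely on oxidative metabolism, in part through the coactivator PGC-1β, encoded by Ppargc1b.

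The files gave a score for each called transcript, printed to steps of 0.1, and no read counts, so the depth was unknown. A printed score can stand for any value within 0.05 of it, and the range of ratios that this allows is given as the rounding range. Among the cell type markers, 9 of 10 macrophage genes had a value in both libraries by gene name, and the remaining gene, Spi1, had transcripts on its own strand. Csf1r, the M-CSF receptor, had a highest score of 5.6 in control and 4.6 after IL-4. No transcript lay on the strand of any of 4 T cell, 4 B cell, 4 fibroblast or 4 muscle markers. By name Cd3d was listed in control (0.4) and Cd79a in both libraries (0.4 in each), from transcripts outside those genes or on the other strand. Of 4 neutrophil genes, Mpo had a score of 0.6 in control only and S100a8 had 0.5 and 0.3. The early IL-4 target Socs1 went from 0.3 to 2.5, and Cish, Egr2 and Myc were listed only after IL-4, each on its own strand. Arg1 was listed only after IL-4 (0.2), with no own-strand transcript, and Irf4 had 1.7 and 1.2 by name but no own-strand transcript in control and 0.4 after IL-4. In bulk samples fewer cells of a type and less RNA per cell cannot be told apart.

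Oxidative phosphorylation genes were detected by name more often than protein-coding genes in general. Of the 93 genes, 66 had a named transcript in both libraries (71.0%), 5 only in control, 8 only after IL-4 and 14 in neither. The share in both was 35.5% for all 21924 protein-coding genes. Of members listed in either library, 6.33% were in control only and 10.1% after IL-4 only. For all protein-coding genes these shares were 8.00% and 10.6%. For complex I 33 of 44 genes were listed in both libraries, including all 7 core subunits, which hold the flavin and iron-sulphur redox centres. The other counts were 2 of 4 for complex II, 6 of 8 for complex III, 12 of 20 for complex IV and 13 of 17 for complex V. The genes listed only in control were Atp5j (0.4), Cox7b (0.4), Uqcrq (0.3), Cox8b (0.2) and Uqcrh (0.2). Those listed only after IL-4 were Ndufa5 (0.4), Ndufaf6 (0.4), Sdhc (0.4), Cox6b1 (0.2), Ndufaf2 (0.2), Ndufaf7 (0.2), Sdhd (0.2) and Cox4i2 (0.1). The genes with no row by name were Ndufa1, Ndufa4l2, Ndufab1, Ndufaf4, Ndufaf8, Ndufb3, Ndufb4, Ndufb11, Cox6a2, Cox7b2, Cox8c, Atp5f1, Atp5g1 and Atp5mpl. Of these, Ndufaf8, Atp5f1 and Atp5mpl had transcripts on their own strand that carried another name. For the others, a lack of calls does not show that a gene was silent.

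By gene name, few members were far from the median gene after IL-4. Each gene took the top score of its named transcripts, and log2 ratios of IL-4 over control were centred on the median of the 8879 genes with a value in both libraries, which was -0.38 before centring. Of the 66 members, 8 were at least 2-fold higher (12.1%, against 8.06% of all genes) and 2 were at least 2-fold lower (3.03%, against 8.62%). The median of the members was 0.38 on the centred log2 scale, beside 0 for all genes, so that the median member had the same printed score in both libraries while the median gene had a lower one after IL-4. Printed scores were higher after IL-4 for 20 members, equal for 15 and lower for 31 (30.3%, 22.7% and 47.0%), whereas among all genes they were lower for 59.5%. The rounding range of 30 of the 66 members included no change, and 59 of the 66 reached a score of 0.3 in either library. By complex the centred medians were 0.38 for complex I (33 genes), -0.12 for complex II (2 genes), 0.38 for complex III (6 genes), 0.22 for complex IV (12 genes) and 0.38 for complex V (13 genes).

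Only Ndufa3, Atp5g2 and Ndufa13 stayed at least 2-fold higher over their whole rounding range after centring, and no member stayed at least 2-fold lower. Ndufa3, an accessory subunit of complex I, scored 0.1 and then 0.3, giving a centred log2 ratio of 1.96 with a rounding range of 1.12 to 3.19. Atp5g2, 1 of 3 genes for the c subunit that forms the rotating ring of the ATP synthase, had the same scores and the same ratio. For both this rested on the centring. At the TSS, where no shift was applied, the same scores did not stay 2-fold apart over the rounding range. Ndufa13, another accessory subunit of complex I, had 1.0 and 1.7, a ratio of 1.14 (1.03 to 1.26). As printed these scores were less than 2-fold apart, so its call too rested on the centring. The transcripts behind these scores lay outside the gene. They were in the last exon of the neighbouring gene Gatad2a (mm10, chromosome 8, 69909204 to 69909546 in control), and Ndufa13 itself had 0.1 and 0.2 on its own strand, from transcripts named Tssk6. Cox8a, a small subunit of complex IV, had 0.2 and 0.4, a ratio of 1.38 (0.86 to 1.96). The same scores and ratio belonged to Uqcrfs1, the Rieske iron-sulphur protein of complex III. Ndufa10 had 0.1 and 0.2, also a ratio of 1.38 with a wider range (0.38 to 2.70). Its own-strand transcript with 0.1 in control lay in an intron repeat 33104 bp from the TSS. That with 0.2 after IL-4 lay 73 bp from the TSS, so these scores came from different places. Uqcr11 and Atp5j2 both had 0.3 and 0.5, a ratio of 1.12 (0.74 to 1.52), and these scores too were less than 2-fold apart as printed.

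The lowest ratios belonged to Ndufa12 and Atp5k. Ndufa12, an accessory subunit of complex I, had scores of 0.4 and 0.1, giving a centred ratio of -1.62 (-2.79 to -0.84). Its control score came from a simple repeat in the gene Nr2c1 (chromosome 10, 94175124 to 94175218) and its IL-4 score from intron 3 of Ndufa12 itself, so that the ratio compared different places. Atp5k, which encodes the small membrane subunit e of ATP synthase, had 0.3 and 0.1, a ratio of -1.21 (-2.43 to -0.36). Here too the control transcript lay outside the gene, 6480 bp from its TSS, and the IL-4 transcript inside it. Ndufa6, Ndufb5 and Ndufc2, all accessory subunits of complex I, followed with a ratio of -0.62, from scores of 2.0 and 1.0 for Ndufa6 and of 0.4 and 0.2 for the others. For Ndufb5 the own-strand transcript with 0.4 in control was in an intron (chromosome 3, 32745893 to 32745981). That with 0.2 after IL-4 was at the promoter (32737065 to 32737285), so these scores also came from different places.

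**Figure D1:**
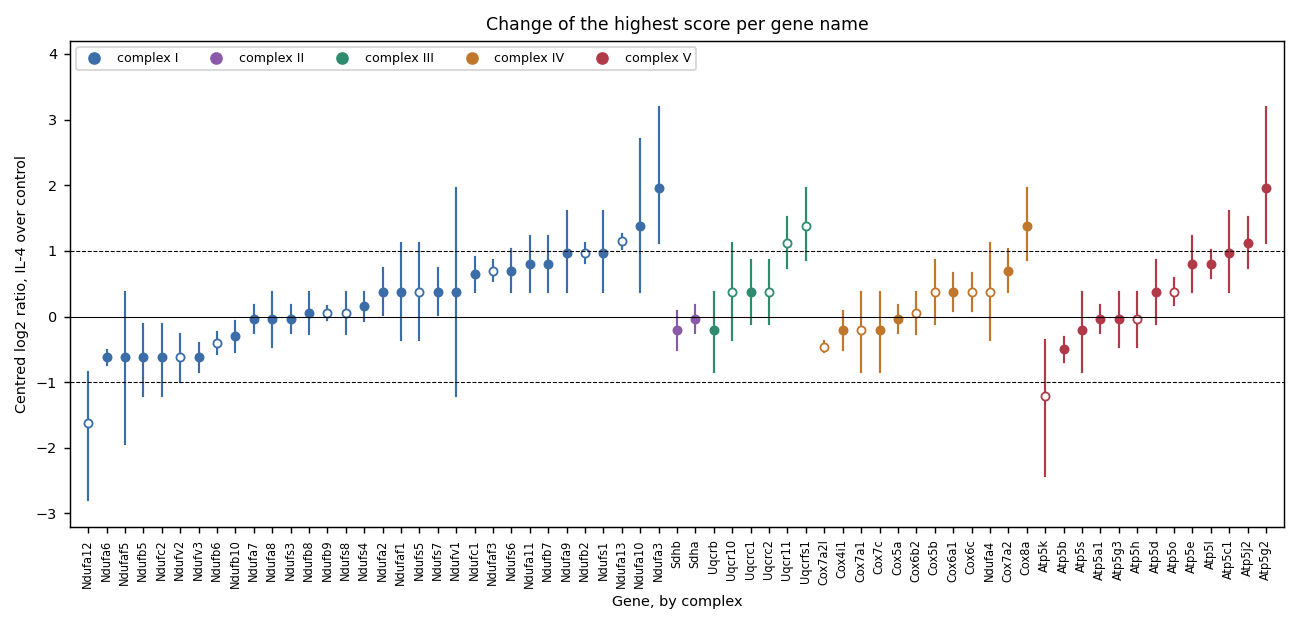
Centred log2 ratio of IL-4 over control for the genes with a named transcript in both libraries, by complex (66, of which 1 is not drawn). Points are the ratios and bars the rounding ranges (n = 1 library per condition), dashed lines mark 2-fold, and open points are genes whose highest-scoring transcript was not on the strand of the gene inside it in both libraries. Most points lie within 2-fold, and the widest bars belong to genes with scores of 0.1.

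The annotation program gave each transcript the name of the gene whose promoter was nearest to its middle, so a name need not mean that the gene itself was transcribed. In control the highest-scoring named transcript lay in the gene on its own strand for 49 of 71 members, outside the gene for 20 and on the opposite strand for 2. After IL-4 these numbers were 53, 19 and 2 of 74. The high named scores of Cox7a2l and Ndufb9 were of this kind. Cox7a2l, a supercomplex factor, had 2.5 and 1.4 by name (ratio -0.46, range -0.54 to -0.38), from a transcript in an intron of Eml4 37628 bp away, and only 0.2 on its own strand, after IL-4. Ndufb9 had 1.5 and 1.2 by name (0.06, range -0.05 to 0.16), from an intron of Mtss1, and 0.3 and 0.4 on its own strand. In the other direction, transcripts on the strand of Atp5f1, which encodes the peripheral stalk subunit b, carried the name of the adjacent gene Wdr77 (0.5 in control, 0.2 after IL-4), and those of Atp5j carried the name Gabpa.

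Each gene was therefore also read from transcripts that overlapped it on its own strand. On this measure 61 of 93 members had a transcript in both libraries (65.6%, against 32.9% of all protein-coding genes), 3 only in control, 11 only after IL-4 and 18 in neither. Of members with one in either library, 4% were in control only and 14.7% after IL-4 only. For all protein-coding genes these shares were 7.54% and 11.8%. All 8 tissue isoforms or paralogs, Cox4i2, Cox6a2, Cox6b2, Cox7a1, Cox7b2, Cox8b, Cox8c and Ndufa4l2, were among the 18. The broadly expressed isoforms of the same subunits were detected: Cox4i1 had 0.6 and 0.4, Cox6a1 had 0.5 in both, Cox7a2 had 0.4 and 0.5, Cox8a had 0.2 and 0.4, and Cox6b1 had 0.2 after IL-4 only. The named values of Cox6b2 (0.5 and 0.4) and Cox7a1 (0.3 and 0.2), a testis and a muscle isoform, came from a simple repeat 4125 bp from the Cox6b2 TSS and from the strand opposite to Cox7a1. Of the c subunit genes, Atp5g1 had no transcript in either library, Atp5g2 had 0.1 and 0.3, and Atp5g3 had 0.4 and 0.3. With the highest own-strand score as the value, 13 of the 61 members were at least 2-fold higher than the median gene (21.3%, against 11.7% of 7209 genes). Of the 61, 0 were at least 2-fold lower (against 8.38%). Among the 13, Ndufs1, Ndufa9, Uqcrfs1, Cox5b, Atp5c1 and Atp5o rose by a single printed step, from 0.2 to 0.3. Centring on the median gene placed that step at the 2-fold cutoff, and rounding ranges were not applied to this count.

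Most called transcripts of these genes were short segments at the start of the gene. In control 55 of the 78 own-strand transcripts, and after IL-4 66 of 103, had their 5' end within 500 bp of an annotated TSS, 1 for each gene. Such a TSS-proximal transcript was called in both libraries for 52 members (55.9%, against 25.7% of all protein-coding genes). It was called in control only for Ndufa13, Uqcrh and Atp5mpl, after IL-4 only for 14 members, and in neither library for 24. The members called only after IL-4 were 20.3% of those called in either library, beside 19.1% for all genes. Those called only in control were 4.35%, beside 8.63% for all genes. The median distance of the 5' end from the TSS was 40 bp downstream in control against 21.5 bp after IL-4, and it was within 100 bp for 44 of 55 and 56 of 66 members (80% and 84.8%). For all genes these distances were 22 and 13 bp and the shares 76.4% and 81.5%. Median lengths were 234 and 265 bp, beside 273 and 342 bp for all genes. The segment was longer after IL-4 for 37 of 52 members (71.2%), close to the share of all genes (69.2%).

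Beyond the TSS little was called. A single own-strand transcript was found for 53 of 64 detected members in control (82.8%) and 52 of 72 after IL-4 (72.2%), whereas the shares were 37.7% and 39.4% for all genes. The members are short, with a median gene length of 7382 bp against 17402 bp for all genes, detected or not. Among genes with a TSS-proximal transcript in both libraries the medians were 7284.5 bp for members and 24013 bp for all. Of the transcripts carrying members' names, 36 of 169 in control were annotated as promoter-TSS (21.3%, 95% interval by the Wilson method 15.8 to 28.1%) and 42 of 217 in the IL-4 library (19.4%, 14.6 to 25.1%), against 10.8% and 10.2% of all transcripts. These intervals cover the sampling of transcripts only. Atp5b, the catalytic β subunit of ATP synthase, had 3 own-strand transcripts in control and 6 after IL-4, the most of any member in the latter. Its relative Atp5a1 had 1 in control and 4 after IL-4. Summed as score times length per kb of gene, without centring, the level of detected members had a median of 9.77 in control (64 genes) and 13.7 after IL-4 (72 genes), beside 7.01 and 7.47 for all genes. Among the 61 members detected in both libraries the level was higher after IL-4 in 39 (63.9%, against 55.0% of all genes). The highest levels per kb were those of Ndufa6 (75.7 in control and 74.2 after IL-4), Ndufb10 (63.8 and 46.5) and Atp5g3 (59.6 and 39.1) in control, and of Cox8a (28.6 and 75.5), Ndufa6 and Cox6a1 (31.0 and 72.9) after IL-4.

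**Figure D2:**
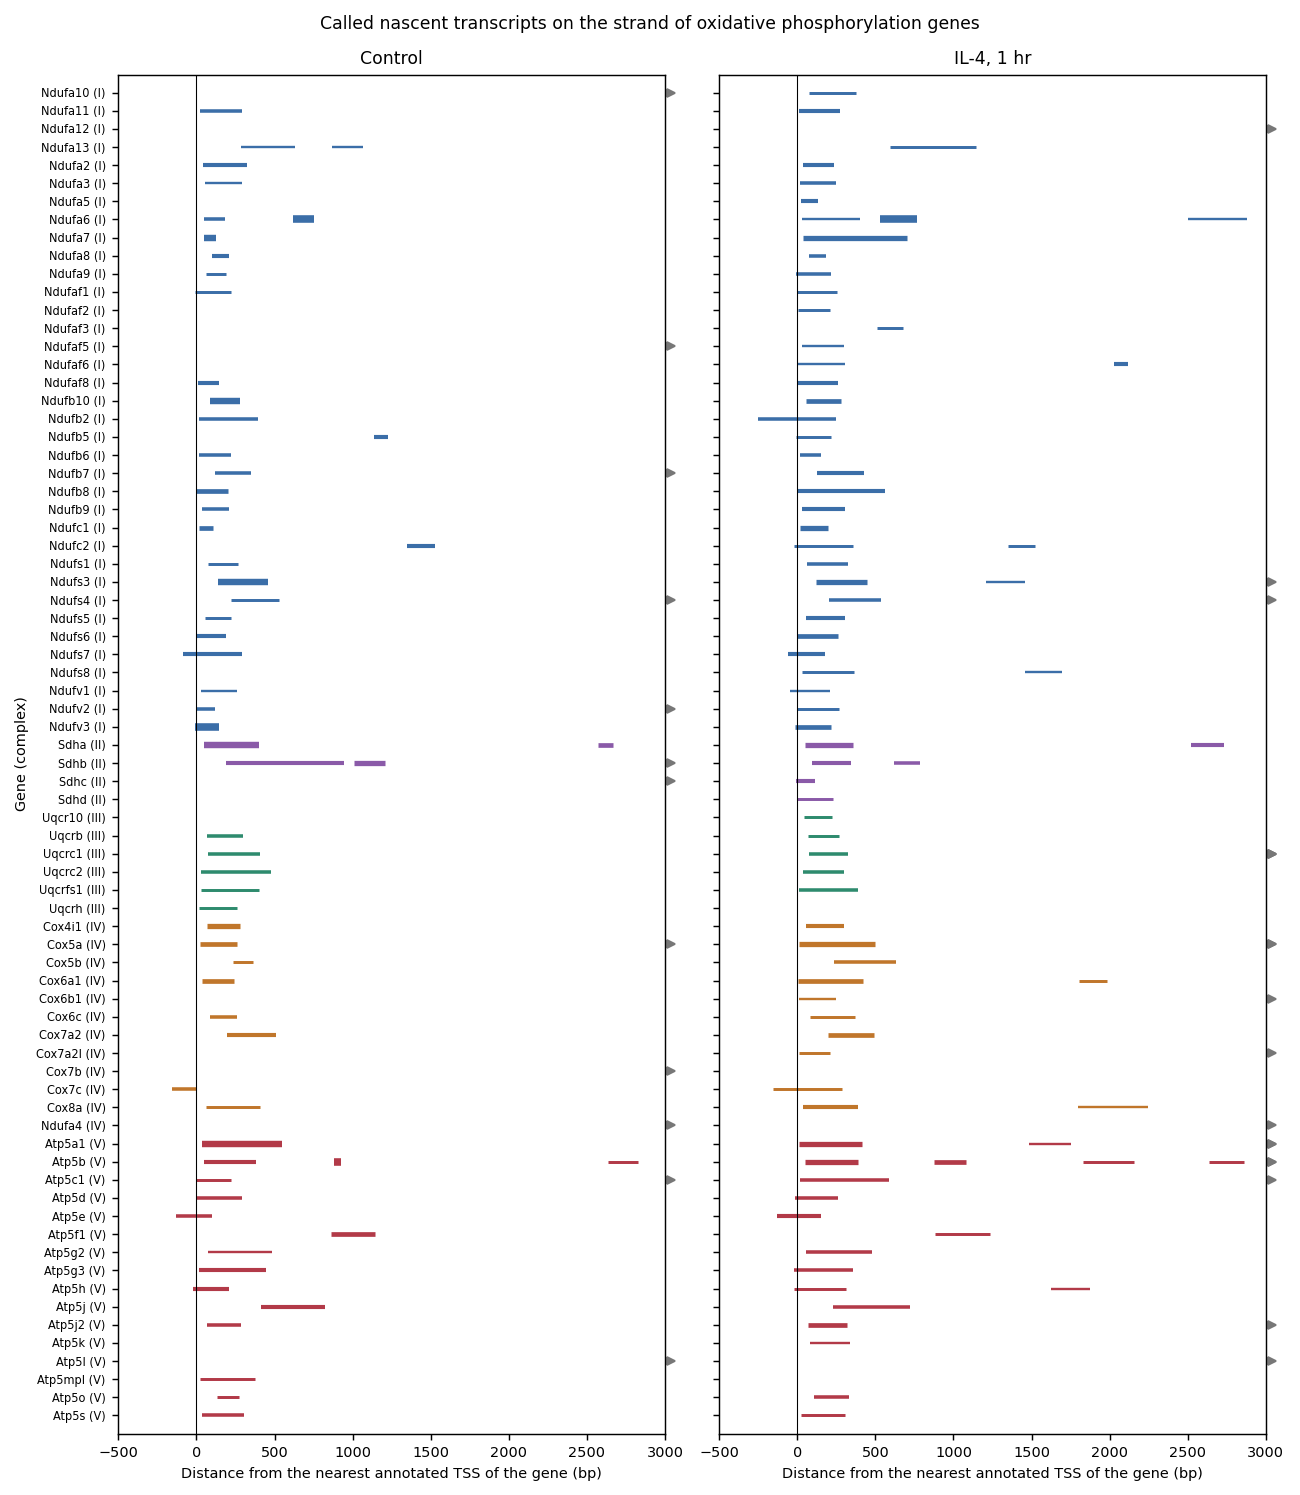
Called transcripts on the strand of each gene, by distance of their ends from the nearest annotated TSS of that gene in bp, in control (left) and after IL-4 (right). Each bar is 1 transcript, thicker for a higher score (up to a score of 1) and coloured by complex, and a grey arrowhead marks a gene with a transcript starting more than 3000 bp from the TSS. In both libraries most genes have a single bar that begins close to the TSS, and 1 gene is not drawn.

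Scores of the TSS-proximal transcripts were close in both libraries. The median log2 ratio was 0 for the 52 members and 0 for all 5625 genes with such a transcript in both, so that no shift was applied. The score was higher after IL-4 for 21 members, equal for 13 and lower for 18 (40.4%, 25% and 34.6%), whereas it was higher for 27.0% and lower for 46.7% of all genes. At least 2-fold higher scores were found for 4 members, Ndufa3, Ndufs5, Cox8a and Atp5g2 (7.69%, against 8.02% of all genes). At least 2-fold lower scores were found for 3, Ndufa6, Ndufv3 and Atp5h (5.77%, against 17.5%). None of the 7 stayed 2-fold apart over its whole rounding range, and the range included no change for 37 of the 52.

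**Figure D3:**
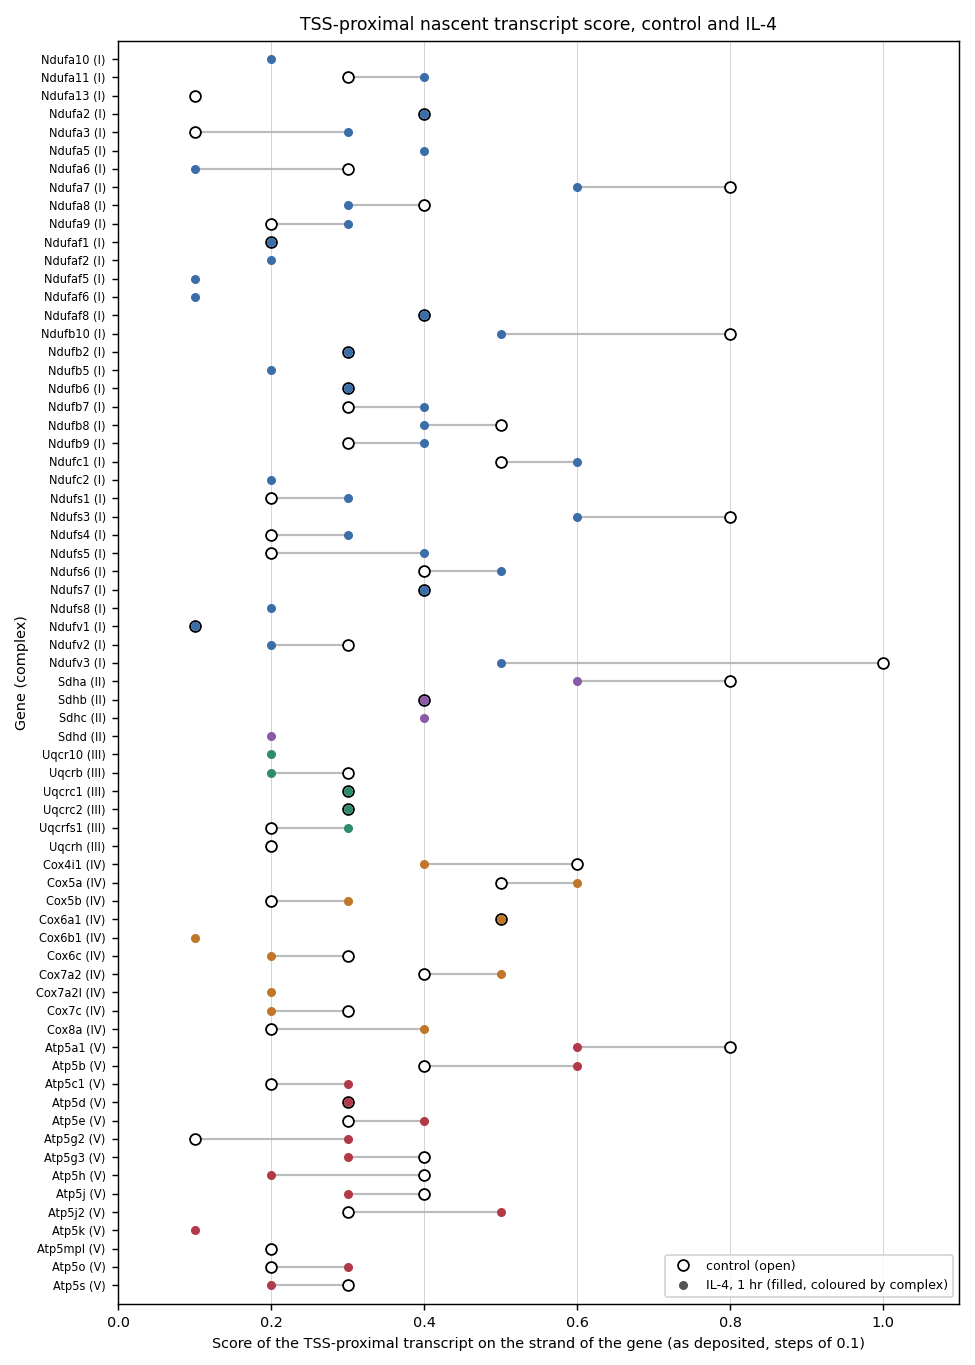
Score of the TSS-proximal transcript on the strand of the gene, in control (open) and after IL-4 (filled, coloured by complex), for the genes with such a transcript in either library (69, of which 1 is not drawn, n = 1 library per condition). Scores of 0.8 or above occur only in control, and most genes differ by 0.2 or less.

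In complex I the core subunits with a TSS-proximal transcript in both libraries had similar scores in them. Ndufs3, a core subunit of the iron-sulphur arm, had the highest TSS-proximal score of the 7, with 0.8 in control and 0.6 after IL-4 (chromosome 2, 90904373 to 90904687 in control). Ndufs1 had 0.2 and 0.3, Ndufs7 had 0.4 in both, Ndufv1 had 0.1 in both and Ndufv2 had 0.3 and 0.2. Ndufs8 had none in control and 0.2 after IL-4. Ndufs8 thus has no ratio, and none of the other core subunits named here differed by 2-fold. Among accessory subunits the scores ran from 0.1 to 1.0. Ndufv3 (ENSMUSG00000024038.17, chromosome 17, 31520115 to 31531331, plus strand) had the highest, 1.0 in control and 0.5 after IL-4, both starting at the TSS, and these were its only own-strand transcripts. Ndufa7 had 0.8 and 0.6, and Ndufb10 had 0.8 and 0.5.

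Ndufa6 (ENSMUSG00000022450.6, chromosome 15, 82350140 to 82354322, minus strand) had 0.3 and 0.1 at the TSS. Its larger named score came from a separate transcript in intron 1, 616 bp downstream of the TSS in control (2.0, 82352592 to 82352729) and 533 bp after IL-4 (1.0). The intron transcript after IL-4 was annotated as a B1 SINE repeat. In Ndufs4, which lies over 100464 bp, a transcript in intron 4 (0.7 and 0.6) likewise exceeded that at the TSS (0.2 and 0.3). Both genes thus carried their highest score away from the promoter in both libraries. Ndufa3 (ENSMUSG00000035674.13, chromosome 7, 3617373 to 3620327, plus strand) had a single transcript in each library, 56 bp from the TSS in control (0.1) and 16 bp after IL-4 (0.3). Ndufa5 had 0.4 at the TSS after IL-4 and no own-strand transcript in control. Of the assembly factors, which help to build complex I and are not part of it, Ndufaf1 (0.2 in both) and Ndufaf8 (0.4 in both) had TSS-proximal transcripts in both libraries, and Ndufaf2 (0.2), Ndufaf5 (0.1) and Ndufaf6 (0.1) only after IL-4. The named score of 0.4 for Ndufaf6 came from a simple repeat 2030 bp from the TSS.

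Complex II had TSS-proximal transcripts at all 4 genes after IL-4 and at 2 in control. Sdha, the flavoprotein that oxidizes succinate, had 0.8 in control and 0.6 after IL-4 at the TSS (chromosome 13, 74349879 to 74350233 in control, minus strand), and a second transcript in its first intron with 0.5 and 0.4. Sdhb, the iron-sulphur subunit, had 0.4 in both at the TSS and 0.6 in control 1006 bp downstream. Sdhc and Sdhd, the membrane anchors, had 0.4 and 0.2 at the TSS after IL-4 and no TSS-proximal transcript in control. The only own-strand transcript of Sdhc in control (0.3) was a simple repeat 18942 bp from its TSS. The named ratios of Sdha (-0.04, range -0.25 to 0.17) and Sdhb (-0.21, range -0.51 to 0.09) included no change.

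In complex III the core proteins Uqcrc1 and Uqcrc2 had 0.3 in both libraries, a centred ratio of 0.38 (-0.11 to 0.86) by name. Uqcrfs1 had 0.2 and 0.3 at the TSS. Its named IL-4 score of 0.4 was a transcript upstream of the gene on the other strand. Uqcr11, with 0.3 and 0.5 by name, had no own-strand transcript, and its named transcripts lay just upstream of the gene on the other strand (chromosome 10, 80406884 to 80407114 in control). Uqcrh had 0.2 in control only and Uqcrb had 0.3 and 0.2. Uqcrq, listed in control only (0.3), had no own-strand transcript in either library. No member of complex III thus had own-strand TSS-proximal scores 2-fold apart.

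In complex IV the highest TSS-proximal scores were those of Cox4i1, a regulatory subunit (0.6 and 0.4), Cox5a (0.5 and 0.6) and Cox6a1 (0.5 in both). Cox5a had a second transcript in an Alu-type SINE 5156 bp downstream, with 0.8 and 0.6, which gave its named ratio of -0.04 (-0.25 to 0.17). Cox8a (ENSMUSG00000035885.5, chromosome 19, 7215153 to 7217616, minus strand) had 0.2 in control (7217207 to 7217558) and 0.4 after IL-4 (7217227 to 7217580), and after IL-4 also a transcript of 0.1 in its intron. It was the only complex IV gene with a 2-fold difference at the TSS. Cox7b had a 78 bp transcript of 0.4 in intron 1 in control and none after IL-4.

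In complex V, Atp5a1 and Atp5b encode the α and β subunits of the catalytic F1 head. Atp5a1 had 0.8 in control and 0.6 after IL-4 at the TSS, and Atp5b (ENSMUSG00000025393.12, chromosome 10, 128083273 to 128090391, plus strand) had 0.4 and 0.6. By name Atp5b had 1.1 and 0.6, a centred ratio of -0.50 (-0.69 to -0.31), because the control value was a 49 bp transcript in intron 2. The direction for Atp5b thus differed between the TSS and the highest score. Atp5g2 (ENSMUSG00000062683.11, chromosome 15, 102662864 to 102672352, minus strand) had a single transcript in each library ending at the same base, 102670647 to 102671051 in control (0.1) and 102670647 to 102671072 after IL-4 (0.3). Atp5g3 had 0.4 and 0.3. Atp5j2, which encodes the membrane subunit f, had 0.3 and 0.5, and Atp5h, a peripheral stalk subunit, 0.4 and 0.2. Atp5l, a membrane subunit, had its highest scores (0.6 and 0.8, ratio 0.79, range 0.58 to 1.01) in intron repeats 3681 and 3676 bp from the TSS, and none at the TSS.

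RefSeq promoter sequences, 250 bases before and 50 after the TSS, were found for 74 of the 93 members (build GRCm38.p6). They were searched on both strands for letters of factors known from genes of this kind. The letters of nuclear respiratory factor 1 (NRF1), GCGCATGCG, were present in 10 of the 74 (13.5%), those of YY1, AAGATGGCG, in 7 (9.46%), those of GABPA and other ETS factors, CCGGAAG, in 17 (23%), and those of SP1, GGGGCGG, in 22 (29.7%). Their shares of all 32817 promoters were 1.75%, 1.40%, 8.86% and 23.2%. Since most of those genes were not detected, the 42 members with a promoter and a TSS-proximal transcript in both libraries were also set beside all 4517 such genes. The shares were then 11.9% against 5.0% for NRF1, 16.7% against 4.45% for YY1, 23.8% against 23.4% for the ETS letters and 33.3% against 48.7% for SP1. The STAT6 palindrome TTCNNNNGAA was present in 5 of 74 promoters (6.76%, beside 6.94% of all promoters), and in 4 of the 42 (9.52%, beside 5.11% of the 4517 genes). The cyclic AMP element TGACGTCA was present in 4 of 74 (5.41% against 1.79%) and 3 of 42 (7.14% against 3.59%). The oestrogen-related receptor letters TCAAGGTCA were present in 2 of 74, Sdhd and Atp5g3 (2.70% against 0.424%), and 1 of 42 (2.38% against 0.221%). A match describes the letters only and is not evidence that a factor bound.

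**Figure D4:**
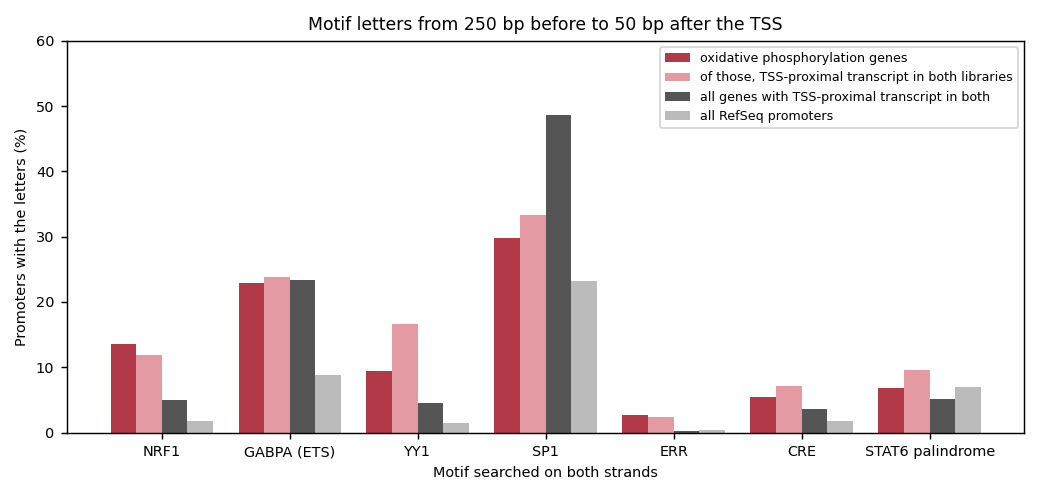
Percent of promoters, from 250 bp before to 50 bp after the TSS, that hold the letters of each motif on either strand, for the 74 members with a RefSeq promoter, the 42 of them with a TSS-proximal transcript in both libraries, the 4517 genes with such a transcript and all 32817 promoters. NRF1 and YY1 letters are more frequent among members than among the other genes with a transcript, and SP1 letters less frequent.

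The YY1 letters stood at a similar place in each promoter. In all 7 members they lay on the strand of the gene, with their first base 10 to 35 bases downstream of the TSS base, whereas among the 4517 genes 166 of 211 matches were on the strand of the gene and 120 were on that strand downstream of the TSS (56.9%). All 7 of these members had a TSS-proximal transcript in both libraries, as had 42 of the 74 members searched. Of the 7, 6 are complex I genes, counting the assembly factor Ndufaf8, and so are 44 of all 93 members. The 30 bases around each match are shown from the 5' end on the strand of the gene, with the YY1 letters in capitals, to show this shared place next to the start of transcription.
Ndufs7 (chr10:80249463-80249492, plus strand): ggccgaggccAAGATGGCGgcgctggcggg
Ndufa9 (chr6:126849096-126849125, minus strand): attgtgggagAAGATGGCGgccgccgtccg
Ndufc1 (chr3:51408914-51408943, minus strand): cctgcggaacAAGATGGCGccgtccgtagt
Ndufs4 (chr13:114388045-114388074, minus strand): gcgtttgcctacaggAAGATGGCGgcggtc
Ndufs6 (chr13:73328433-73328462, minus strand): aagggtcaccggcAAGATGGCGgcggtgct
Ndufaf8 (chr11:120098934-120098963, plus strand): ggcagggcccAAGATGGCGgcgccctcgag
Atp5j2 (chr5:145191499-145191528, minus strand): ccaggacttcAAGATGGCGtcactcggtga
Their TSS-proximal scores in control and after IL-4 were 0.4 and 0.4 for Ndufs7, 0.2 and 0.3 for Ndufa9, 0.5 and 0.6 for Ndufc1, 0.2 and 0.3 for Ndufs4, 0.4 and 0.5 for Ndufs6, 0.4 and 0.4 for Ndufaf8 and 0.3 and 0.5 for Atp5j2. None of them was lower after IL-4, which also held for most members with a TSS-proximal score in both libraries. The largest difference among the 7 was 0.2, and the rounding range included no change for all but Atp5j2. The median log2 ratio was 0.32 for these 7 and 0 for the 35 members without the letters. Whether the YY1 letters go with the response to IL-4 was not tested.

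The NRF1 letters are nearly a palindrome, and in 7 of the 10 members they were read on both strands at overlapping positions. Unlike the YY1 letters they had no shared place, with first bases from -241 to 31 relative to the TSS base. Examples from complexes I, III, IV and V are shown, with the NRF1 letters of the gene strand in capitals.
Ndufa11 (chr17:56717692-56717721, plus strand): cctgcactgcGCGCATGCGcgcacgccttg
Uqcrc1 (chr9:108936668-108936697, plus strand): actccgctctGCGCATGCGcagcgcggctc
Cox6a1 (chr5:115349101-115349130, minus strand): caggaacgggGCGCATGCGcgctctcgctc
Atp5k (chr5:108434430-108434459, minus strand): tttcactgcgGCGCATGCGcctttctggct
The TSS-proximal scores were 0.3 and 0.4 for Ndufa11, 0.3 in both for Uqcrc1, 0.5 in both for Cox6a1 and 0.1 after IL-4 only for Atp5k. The 5 members with NRF1 letters and a score in both libraries had a median log2 ratio of 0, as had the 37 without them. With and without the ETS letters the medians were 0 (10 members) and 0.13 (32), and for SP1 0 (14) and 0.26 (28). They were 0.42 (4) and 0 (38) for the STAT6 palindrome and 0.42 (3) and 0 (39) for the cyclic AMP element. The 1 member with the oestrogen-related receptor letters had -0.42, beside 0 for 41. None of these differences was tested.

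Longer stretches are shown for the members with 2-fold higher TSS-proximal scores whose promoters were marked by a match, 150 bases before the TSS and the first 20 from it, with the matched letters in capitals.
Ndufa3 (chr7:3617223-3617392, plus strand, SP1 letters): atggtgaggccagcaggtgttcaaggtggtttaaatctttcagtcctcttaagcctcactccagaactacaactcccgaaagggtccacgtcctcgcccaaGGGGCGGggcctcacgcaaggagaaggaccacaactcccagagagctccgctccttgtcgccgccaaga
Cox8a (chr19:7217597-7217766, minus strand, ETS letters on the other strand): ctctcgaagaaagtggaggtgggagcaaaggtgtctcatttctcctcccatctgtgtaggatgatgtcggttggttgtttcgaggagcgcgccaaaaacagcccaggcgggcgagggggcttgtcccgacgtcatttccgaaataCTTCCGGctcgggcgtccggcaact
Atp5g2 (chr15:102671028-102671197, minus strand, NRF1 letters and, on the other strand, SP1 letters): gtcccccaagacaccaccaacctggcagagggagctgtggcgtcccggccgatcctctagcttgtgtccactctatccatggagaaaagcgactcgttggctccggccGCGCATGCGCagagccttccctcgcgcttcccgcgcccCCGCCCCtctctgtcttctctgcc
These promoters shared no matched motif other than the SP1 letters of Ndufa3 and Atp5g2, and none of them held the STAT6 palindrome. The median GC content of the members' promoters was 57.8%, below the 62.3% of the 4517 genes with a TSS-proximal transcript in both libraries and above the 52.7% of all promoters.

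Many members share their promoter with another gene. For 27 of the 93 (29%) the TSS of a gene on the opposite strand, facing away, lay within 1000 bp, against 9.0% of all protein-coding genes. Among genes with a TSS-proximal transcript in both libraries the shares were 30.8% and 15.6%. The gaps were as small as 3 bp, between Ndufs1 and Eef1b2, a translation elongation factor. At this pair the scores were 0.2 and 0.3 for Ndufs1 and 0.3 and 0.4 for Eef1b2. Ndufa7 (0.8 and 0.6) stood 10 bp from the ribosomal protein gene Rps28 (0.5 and 0.4), and Cox4i1 (0.6 and 0.4) stood 101 bp from Emc8 (0.5 in both). Sdhd and its partner Timm8b, which encodes a mitochondrial import chaperone, were 98 bp apart. Neither had a transcript in control, and after IL-4 they had 0.2 and 0.6. Uqcrh had 0.2 in control and no transcript at the TSS after IL-4, while its partner Lrrc41, 198 bp away, had 0.4 and 0.5. A divergent transcript upstream of the TSS was called for 22 members in control and 30 after IL-4 (23.7% and 32.3%), beside 11.2% and 13.7% of all protein-coding genes. Among genes with a TSS-proximal transcript in both libraries the shares were 25% and 34.6% for members and 27.7% and 34.1% for all.

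Other respiratory chain genes, such as cytochrome c and assembly factors, are left out by the symbol rule. Of 34 such genes, 27 had a named value in both libraries, 2 were at least 2-fold higher (against 8.06% of all genes) and 2 at least 2-fold lower (against 8.62%), with a centred median of 0.12. At the TSS 24 had a score in both libraries, 1 was at least 2-fold higher (against 8.02%) and 5 at least 2-fold lower (against 17.5%), with a median of -0.07. Those lower were Cox18, Cox20, Sdhaf4, Acad9 and Usmg5. Cycs, cytochrome c, had 0.4 in both libraries, and Cyc1, the cytochrome c1 of complex III, had 0.6 and 0.5. The highest ratio was that of Higd2a, an assembly factor of complex IV, with 0.1 and 0.2 (1.38, range 0.38 to 2.70). The lowest was that of Usmg5, a small ATP synthase component, with 0.5 and 0.1 (-1.94, range -3.08 to -1.21), both at its TSS.

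Among 16 regulators of mitochondrial gene expression, 11 had a named value in both libraries, 2 were at least 2-fold higher (against 8.06% of all genes) and 0 lower (against 8.62%), with a centred median of 0.38. At the TSS 5 had a score in both libraries, 0 were at least 2-fold higher (against 8.02%) and 1, Yy1, was lower (0.8 and 0.4, against 17.5%), with a median of 0. Ppargc1b, the gene of PGC-1β, had scores of 0.6 and 2.6, giving a centred ratio of 2.49 (2.35 to 2.65). Both scores came from its own strand, and its TSS-proximal score was 0.4 after IL-4 with no such transcript in control. The other higher gene, Polg, the mitochondrial DNA polymerase, had 0.2 and 0.4 by name but 0.2 and 0.1 on its own strand. Nrf1 had 1.1 and 0.9 (0.09, range -0.06 to 0.23), and Tfam, the mitochondrial transcription factor, had 0.5 and 0.2 (-0.94, range -1.50 to -0.47). Gabpa had 0.4 and 0.3 by name (-0.04, range -0.47 to 0.38), but transcripts on Atp5j with these scores carried its name, and on its own strand it had 0.4 and 0.1. Nrf1 had 0.5 and 0.3 on its own strand, and Tfam 0.3 and 0.2. No named transcript was found for Ppargc1a. Thus the score of Ppargc1b was higher after IL-4 at 1 hr, while the median member had the same printed score in both libraries.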

How the data were processed

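Called transcripts of 2 GRO-seq libraries were analysed. The authors aligned reads to mm10 with BWA, removed artifact regions and called and annotated transcripts in each library with HOMER. The submitters' processing notes name BWA 0.7.10, SAMtools 0.1.19 and HOMER 4.2. The deposited value is a peak score per transcript, per the file headers, printed to 0.1. Its scaling is not given in the sources used here, and depth is unknown.

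All transcripts were kept. A gene's value was the highest score by gene name. Log2 ratios were centred on the median gene and counted at 2-fold. Own-strand overlap (at least 1 bp) and TSS-proximal transcripts (5' end within 500 bp of a GENCODE M21 TSS of the same build, a measure added after the data were seen) were read separately. Ratios with 1 library per condition have rounding ranges only. Promoters were RefSeq sequences, whose TSS can differ from that of GENCODE. Divergent transcripts were taken within 500 bp upstream of the TSS, and facing genes within 1000 bp. The calculation was tested on simulated scores (Python 3.11.15, pandas 2.3.3, numpy 2.4.6, matplotlib 3.10.9).

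The members, the gene lists (respiratory chain genes outside the rule, regulators, citric acid cycle genes, mitochondrially encoded subunits, early IL-4 targets, cell type markers) and the motifs were chosen with earlier results of these data known. Genes named by rule were the members 2-fold apart over the rounding range, the 3 highest mean scores of each complex, the 5 highest and 5 lowest ratios with a score of 0.3 or more, members with such a score in 1 library only, all of complex II, the c subunits and the complex IV isoform pairs. Other genes were named after their values were seen. Values of 2 genes are not reported here one by one, though the counts include them.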

Additional observations from a re-analysis of the deposited data

How the results depend on the processing

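The limits are the lack of replicates, the unknown depth and scaling of the score, and its steps of 0.1, which are coarse beside most members' scores of 0.1 to 0.5. No paired analysis was possible because each condition had a single library and no result came from a test.

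The 8 members at least 2-fold higher became 14 with the sum of scores, 15 with score times length, 4 with the transcript nearest the TSS, 13 with own-strand overlap, 5 without centring, 15 with missing genes set at 0.1 and 4 with the own-strand TSS-proximal transcript, a measure chosen after seeing the data. The 2 lower ones became 4, 6, 11, 0, 8 and 5 under the first 6 of these settings. The shares of all genes that were higher under these 7 settings were 13.6%, 17.2%, 11.0%, 11.7%, 5.98%, 13.1% and 8.02%, and of those lower under the first 6 were 13.7%, 16.9%, 27.7%, 8.38%, 24.3% and 12.3%. The members' median of 0.38 changed to 0.42 with own-strand overlap, and was 0 with the transcript nearest the TSS, without centring and with the TSS-proximal transcript. The complex medians depended on the setting too. For complex II, with at most 3 genes, it was -0.23 with the sum of scores, -1.08 with score times length, -0.21 with the transcript nearest the TSS and with the TSS-proximal transcript, 0 with own-strand overlap and -0.50 without centring. For complex IV it was 0.76 with score times length and -0.45 with the transcript nearest the TSS, and for complex V -0.42 with the latter. Complex III had 1.03 with the sum of scores and 0.06 with score times length, complex I had 0.02 with score times length, and both had 0 with the transcript nearest the TSS, without centring and at the TSS. The promoter-TSS share after IL-4 was 29.3% when only scores of 0.3 or more were kept. Among 27 named genes the sign of a ratio of at least 2-fold changed for Uqcr11 with score times length (-0.12). The cause of these changes was not tested. Of 146 values of named genes under other settings, 74 stayed within the rounding range and 71 left it. With only scores of at least 0.3, without simple repeats and with structural subunits alone, the counts stayed within 1.5 times, and so did the number of members present in both libraries (66, 61 by own-strand overlap, 44 with scores of at least 0.3).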

Other observations

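The enzymes of the citric acid cycle and pyruvate dehydrogenase, which supply the electrons that the respiratory chain uses, were also counted. Of 16 genes, 11 had a named value in both libraries, with a centred median of 0.38, 1 gene at least 2-fold higher (against 8.06% of all genes) and 1 at least 2-fold lower (against 8.62%). At the TSS 9 had a score in both libraries, 0 were at least 2-fold higher (against 8.02%) and 2, Dlst and Pdhb, were lower (both 0.4 and 0.2, against 17.5%), although Pdhb had 0.4 and 0.5 by name. The higher gene was Cs, citrate synthase, with 0.3 in control and 0.5 after IL-4 (1.12, range 0.74 to 1.52), both at its TSS. The lower gene was Dlst, a component of 2-oxoglutarate dehydrogenase, with 0.6 and 0.2 (-1.21, range -1.74 to -0.76). Idh3b and Pdha1 were listed only after IL-4 (0.2 and 0.1) and Idh3g only in control (0.3).

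None of the 13 subunits encoded in the mitochondrial genome had a transcript by gene name. By position, the mitochondrial chromosome held 6 called transcripts in control, against 10 in the IL-4 library. Top scores lay on the ribosomal RNA genes (22.5 and 57.7), and the IL-4 segment ran into the start of mt-Nd1. On the protein-coding genes mt-Nd6 had 0.3 in both libraries, and mt-Nd2 (0.4), mt-Nd5 (0.2) and mt-Co1 (0.1) had transcripts on their strand only after IL-4. The scores of the subunits other than mt-Nd1 were thus in the range of the nuclear members.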
